A study of Homo sapiens with 9 samples.

Results

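The genes described here are 33 genes of the ATF4 stress and amino acid programme, taken by gene symbol from a fixed list, with tRNA synthetases under their older symbols (AARS for alanyl-tRNA synthetase, and so on). All 33 were found among the 44608 entries of each count table, and 32 of them were among the 14815 genes with enough reads to be tested. The measurements are RNA-seq read counts from U2OS cells, an established human osteosarcoma line. In 3 libraries the cells had received a non-silencing siRNA (siNS), in 3 an siRNA against NFKB2 (siNFKB2) and in 3 an siRNA against RELB (siRELB), each at 75 nM with a lipid carrier for 48 h. NFKB2 and RELB encode the partner subunits of non-canonical NF-kB signalling. The siNS cells were transfected like the others, no untransfected cells were analysed here, and the labels name neither the siRNA sequences nor how many were used per gene. Nothing in the labels says whether the numbered replicates were grown apart. The p-values therefore measure the spread among these libraries only, and it may be technical.

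ATF4 is a transcription factor of the integrated stress response. Kinases that sense amino acid shortage, a faulty endoplasmic reticulum (ER), haem lack or viral RNA phosphorylate the initiation factor eIF2, which lowers protein synthesis in general and lets ATF4 mRNA be translated. Much of ATF4 control is therefore at translation and is not visible in mRNA counts, whereas its target genes, for amino acid transport and synthesis, tRNA charging and feedback, are controlled at transcription. ATF4 binds as a dimer with C/EBP family proteins to a composite site, the C/EBP-ATF response element.

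The core of that site, TGATGNAA, was searched on both strands of RefSeq promoter windows (GRCh38.p14, 250 bases before to 50 after the start site), because it is the sequence through which ATF4 reaches its targets. A window was held for 28 of the 33 genes, and NUPR1, SLC7A11, PSPH, SHMT2 and ALDH1L2 were not matched. Of the 28, 5 carried a match (17.9%), against 3.62% of all 35116 windows of this length. The matches are shown 5′ to 3′ on the gene's strand, with the matching letters in capitals, read on the opposite strand in CHAC1, AARS and GARS.
CEBPG chr19:33374045-33374104 (plus strand, match at -42 to -35 from the start): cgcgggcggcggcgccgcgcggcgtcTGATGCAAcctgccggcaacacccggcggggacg
CHAC1 chr15:40953236-40953295 (plus strand, -209 to -202): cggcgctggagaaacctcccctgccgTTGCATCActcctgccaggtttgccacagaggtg
AARS chr16:70289660-70289719 (minus strand, -187 to -180): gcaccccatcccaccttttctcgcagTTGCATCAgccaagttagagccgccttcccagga
GARS chr7:30594834-30594863 (plus strand, -33 to -26): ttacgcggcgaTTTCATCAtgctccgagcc
NARS chr18:57621804-57621833 (minus strand, 15 to 22): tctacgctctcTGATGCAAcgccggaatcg
The CEBPG and NARS matches hold the same letters, and those of CHAC1 and AARS are their reverse complement, while GARS differs at the free position. A match is a description of the letters, not evidence of binding, and no match says only that these letters are not in this window.

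Total counts were 15011789 to 19279572 per library, and levels are given in CPM, counts scaled to a common library size by edgeR, and ± marks the SD over the libraries of a group (n = 3). The knockdown targets were lower where labelled: relative to the average siNS level, NFKB2 was left at 4.86%, 21.1% and 44.8% in the siNFKB2 libraries and RELB at 9.79%, 17.1% and 19.7% in the siRELB libraries. On the same scale the other subunit, RELB, was at 77.6%, 154% and 158% in siNFKB2 replicates 1 to 3. NFKB2 was at 109%, 156% and 155% in siRELB replicates 1 to 3. The siNS libraries themselves spanned 74.6% to 117% for NFKB2 and 63.0% to 125% for RELB. The mesenchymal markers VIM (2140 to 3220 CPM), SPARC (1194 to 1654 CPM) and COL1A1 (517.6 to 1074 CPM) were high in every library, while the blood marker PTPRC had 2 to 9 counts. Epithelial markers were not absent: the 4 tested summed to 572.8 (siNFKB2 replicate 1) to 928.0 CPM (siNS replicate 2), although EPCAM was at 1.02 to 2.73 CPM. In siNFKB2 against siNS, 4 of 7 mesenchymal and osteosarcoma markers fell, among them RUNX2 (4.003 to 13.9 CPM over all libraries), 1 of 4 epithelial markers rose and 1 fell, the single blood marker tested (HBB) fell and none of 2 endothelial markers was called. The part of this in the results below was not tested. The libraries numbered 1 stood apart from the others of their groups. Deviations from the group mean correlated across genes at 0.63 between siNFKB2 and siNS replicates 1, 0.68 between siRELB and siNS replicates 1 and 0.59 between siNFKB2 and siRELB replicates 1. Mitochondrial rRNA, a sign of RNA quality or selection, took 0.379% to 2.68% of counts, the most in siNFKB2 replicate 3. Counts below are therefore also given without the 3 libraries numbered 1, a setting added with results known. As these are bulk samples, fewer cells with a transcript and less of it per cell cannot be told apart.

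After NFKB2 knockdown the programme did not move as a block. Of the 32 genes tested, 5 rose (DDIT4, TRIB3, PPP1R15A, VLDLR and SLC7A11) and 2 fell (JDP2 and NUPR1). That is 21.9% of the genes, beside 26.1% of all 14815 genes called in the same comparison (adjusted p below 0.05), so the share was near the background. By direction, all genes were called higher in 12.6% and lower in 13.5% of cases. The median log2 fold change of the 32 was 0.09, against -0.0037 over all genes. Libraries did not overlap with siNS for 5 genes higher and 2 lower, or 7 of 32, beside 37.4% of all genes (18.8% higher and 18.6% lower). These are not the same 7 genes. DDIT4 and NUPR1 were called but overlapped, while GARS (higher) and SHMT2 (lower) did not overlap and were not called. An unadjusted p below 0.05 was reached by 7 of 32, beside 38.5% of all genes. The 5 that rose are feedback and signalling genes and a cystine transporter. No biosynthetic enzyme and no tRNA synthetase passed the test. Without the 3 libraries numbered 1 there were 11 calls, 5 higher and 6 lower, or 34.4%, beside 44.9% of all genes. The 4 gained, all lower, were AARS, SLC7A5, SHMT2 and WARS. Without siNS replicate 3 there were 4 calls (12.5%, beside 15.5% of all genes). On GRCh38 (GENCODE 29) the genes that rose lie at chr10:72273920-72276036 (DDIT4), chr20:362835-397559 (TRIB3), chr19:48872392-48876057 (PPP1R15A), chr9:2621834-2660053 (VLDLR) and chr4:138164097-138242349 (SLC7A11), and NUPR1 lies at chr16:28532708-28539174.

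**Figure D1:**
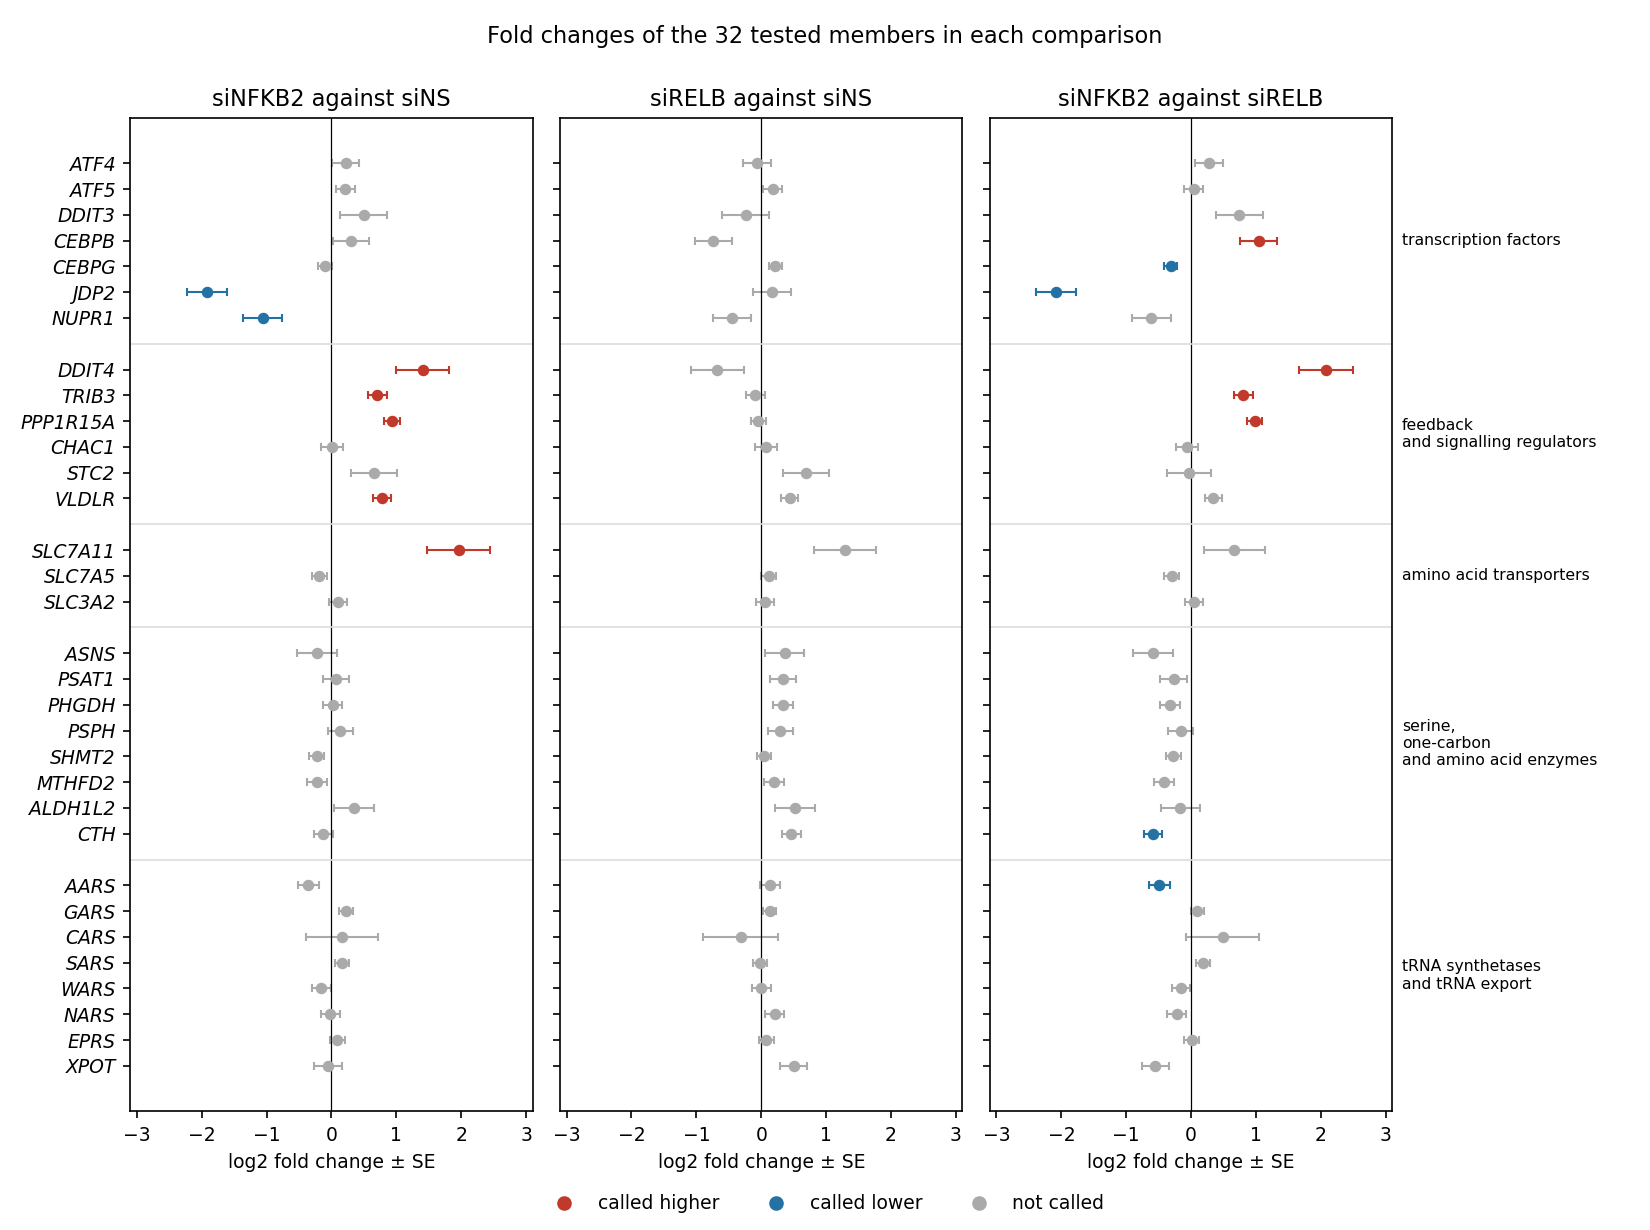
Log2 fold change ± SE of the 32 tested genes in each of the 3 comparisons, grouped by role, with called genes in red (higher) or blue (lower) and genes not called in grey. Against siNS, siNFKB2 had 5 genes called higher and 2 lower, siRELB had none, and siNFKB2 against siRELB had 4 each way.

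Among the transcription factors, ATF4 itself was at 161.6, 298.1 and 255.3 CPM in siNS replicates 1 to 3, 268.9, 275.3 and 287.2 CPM in siNFKB2, and 173.8, 260.6 and 250.4 CPM in siRELB. The lowest libraries were siNS and siRELB replicates 1, and the siNS and siNFKB2 ranges overlapped. The log2 fold change of ATF4 was 0.22 in siNFKB2 (SE 0.215, adjusted p = 0.499) and -0.06 in siRELB (SE 0.215, adjusted p = 0.912). Relative to the siNS library of the same number, ATF4 was 1.66, 0.923 and 1.12 times as high in siNFKB2. ATF5, a related factor that is also translated under stress, was at 62.9 ± 12.3 CPM in siNS and 73.0 ± 4.24 CPM in siNFKB2 (log2 0.22, adjusted p = 0.307). DDIT3 encodes CHOP, the factor that links lasting stress to cell death. It was at 7.204, 17.3 and 11.7 CPM in siNS, 12.0, 12.8 and 26.4 CPM in siNFKB2, and 7.74, 11.1 and 11.7 CPM in siRELB. The siNFKB2 and siNS libraries overlapped for DDIT3 (log2 0.50, SE 0.362, adjusted p = 0.344). The highest DDIT3 value was in siNFKB2 replicate 3, the library with the most mitochondrial rRNA, whose part in it was not tested. Over 18 alternatives, among them a mitochondrial rRNA covariate and leaving that library out, the log2 fold change of DDIT3 ran from 0.06 to 0.86. It was called in none of them.

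JDP2, a basic leucine zipper protein that represses AP-1 and ATF sites, had the largest fall of the 32 genes. It was at 33.2, 30.8 and 35.5 CPM in siNS, 14.4, 5.92 and 5.89 CPM in siNFKB2, and 42.8, 34.5 and 34.3 CPM in siRELB. All siNFKB2 libraries lay below every siNS and siRELB library. The log2 fold change was -1.91 (SE 0.306, adjusted p = 0.00178), and JDP2 was called in all 18 alternative analyses. JDP2 lies on chromosome 14 from 75427716 to 75474111 (GRCh38, GENCODE 29, plus strand).

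NUPR1, a small chromatin protein induced by stress, averaged 50.2 ± 19.2 CPM in siNS and 24.0 ± 6.99 CPM in siNFKB2, and fell (log2 -1.06, SE 0.301, adjusted p = 0.0257). Its values were 29.9, 68.0 and 52.9 CPM in siNS and 31.9, 18.5 and 21.7 CPM in siNFKB2, so the groups overlapped at their replicates 1. It was at 28.3, 41.7 and 40.4 CPM in siRELB. Against the siNS library of the same number, NUPR1 in siNFKB2 was 1.07, 0.272 and 0.41 times as high. The NUPR1 call was lost without siNS replicate 2 (adjusted p = 0.0854), siNS replicate 3 (0.0773), siNFKB2 replicate 2 (0.107) or siNFKB2 replicate 3 (0.0818). Over 18 alternatives its adjusted p ranged from 6.49e-06 to 0.107.

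The C/EBP partners of ATF4 were not called against siNS. CEBPB, which is itself induced by stress and cytokines, was at 23.5, 46.8 and 44.6 CPM in siNS, 30.7, 50.5 and 60.7 CPM in siNFKB2, and 21.7, 24.4 and 22.6 CPM in siRELB. It was not called in siNFKB2 against siNS (log2 0.30, adjusted p = 0.467) or in siRELB against siNS (log2 -0.74, adjusted p = 0.229). CEBPG, the common dimer partner of ATF4 in amino acid genes, was at 51.7, 50.8 and 50.7 CPM in siNS, 51.1, 46.4 and 45.4 CPM in siNFKB2, and 60.2, 60.1 and 57.6 CPM in siRELB. Its log2 fold change was -0.10 in siNFKB2 (adjusted p = 0.516) and 0.21 in siRELB (adjusted p = 0.326).

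**Figure D2:**
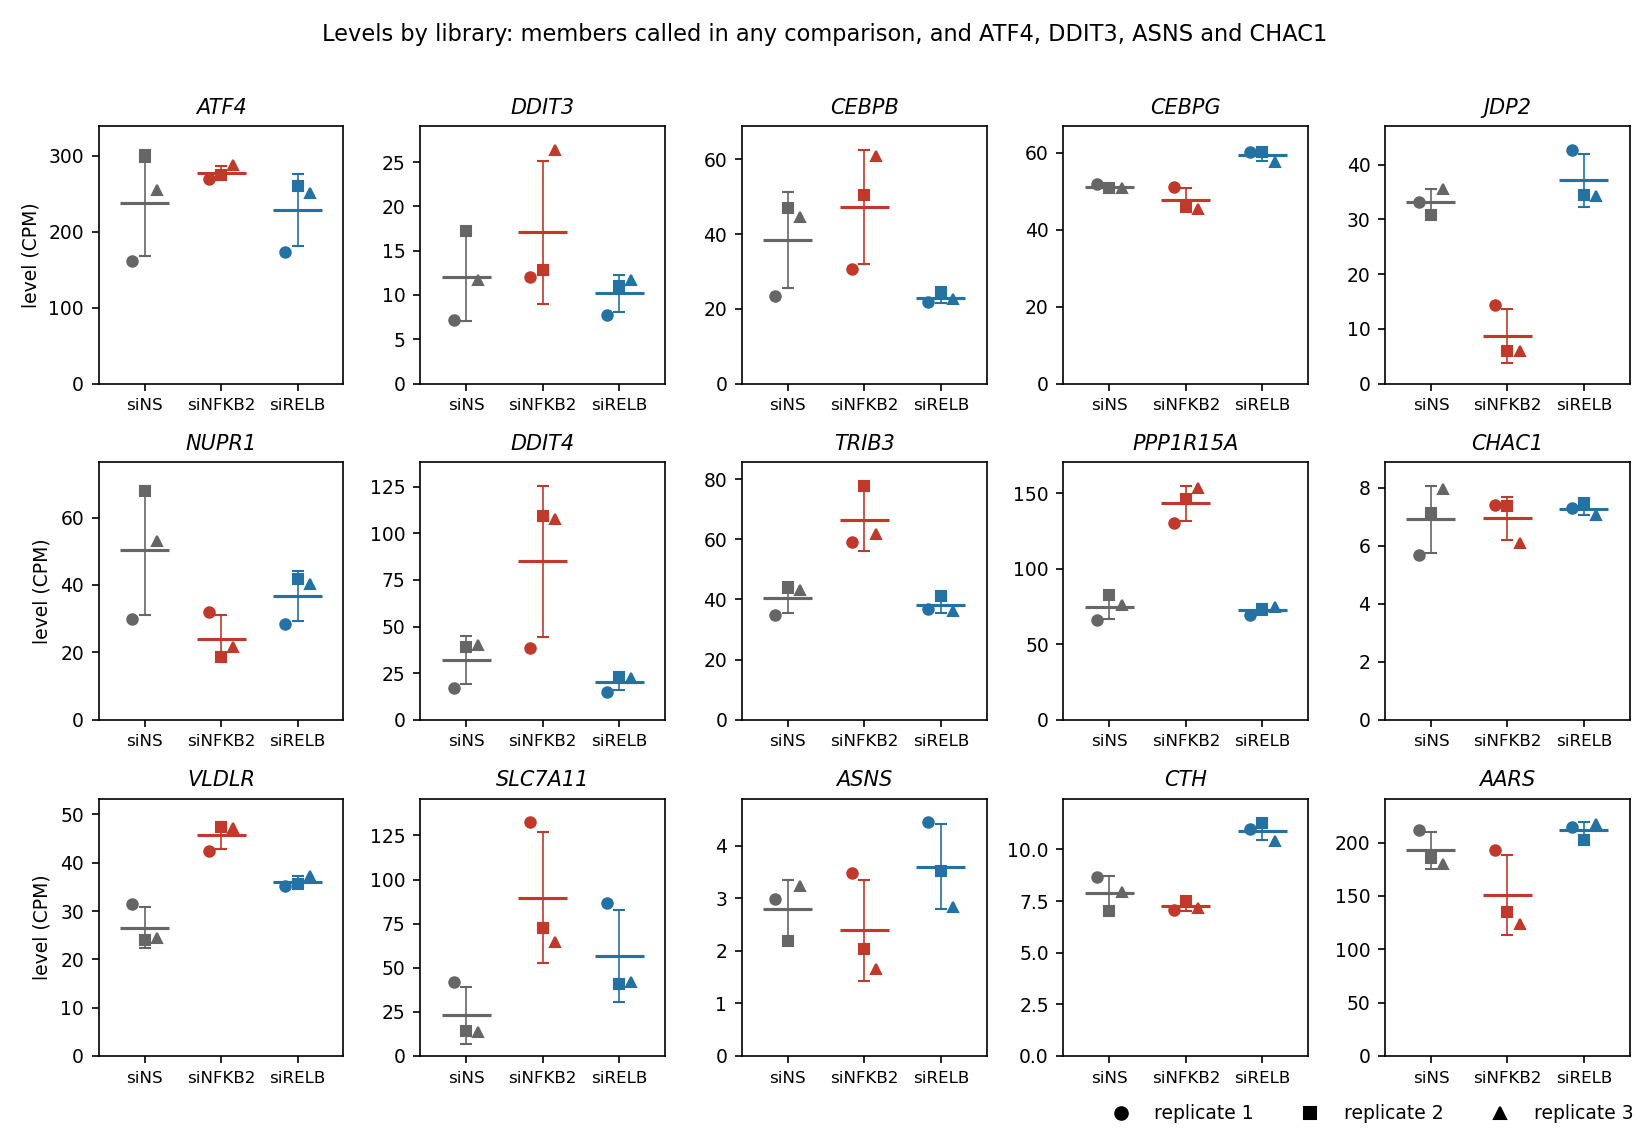
Level in CPM in each library (points, shaped by replicate number) with the group mean and SD (bar and whiskers), for the 11 genes called in any comparison, among them TRIB3, and for ATF4, DDIT3, ASNS and CHAC1. JDP2 in siNFKB2 lies at 5.89 to 14.4 CPM, below all other libraries, and PPP1R15A in siNFKB2 lies at 130.4 CPM or more, above all other libraries.

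The feedback and signalling genes held 4 of the 5 rises. Of these 6 genes, 4 rose and none fell in siNFKB2, with a median log2 fold change of 0.74, beside 12.6% of all genes called higher and 13.5% lower. The count was 3 in the settings that lost DDIT4, named below. The role is a grouping made here, which also holds VLDLR and STC2, of genes chosen with earlier results known. Its share is therefore a description and not a test, and the 32 genes together were near the background. PPP1R15A encodes GADD34, which brings a phosphatase to eIF2 and so ends the response. It was at 66.3, 82.7 and 75.9 CPM in siNS, 130.4, 145.9 and 153.3 CPM in siNFKB2, and 69.3, 73.4 and 74.8 CPM in siRELB. Every siNFKB2 library was above every other library. Its log2 fold change was 0.93 (SE 0.118, adjusted p = 0.000569), the smallest adjusted p of the 32 genes.

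TRIB3, a pseudokinase that binds ATF4 and restrains it, was at 34.7, 43.8 and 43.3 CPM in siNS, 59.2, 77.8 and 61.9 CPM in siNFKB2, and 36.8, 41.0 and 36.3 CPM in siRELB. The siNFKB2 libraries did not overlap with the others. TRIB3 rose by 0.71 on the log2 scale (SE 0.146, adjusted p = 0.00613). TRIB3, PPP1R15A, VLDLR and JDP2 were each called with any of the 9 libraries left out.

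VLDLR, a lipoprotein receptor, was at 31.4, 24.0 and 24.4 CPM in siNS, 42.5, 47.3 and 47.2 CPM in siNFKB2, and 35.1, 35.6 and 37.3 CPM in siRELB. The 3 groups did not overlap, with siRELB between the other groups. VLDLR rose in siNFKB2 (log2 0.78, SE 0.133, adjusted p = 0.00245), and its value in siRELB was 0.44 (adjusted p = 0.131). An antisense gene, VLDLR-AS1, covers 7.9% of the exonic length of VLDLR and had 8 to 52 counts per library. Whether counting used strand is not given in the sources used here.

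DDIT4 encodes REDD1, an inhibitor of mTORC1 growth signalling. It was at 17.2, 38.8 and 40.3 CPM in siNS, 38.3, 109.3 and 107.5 CPM in siNFKB2, and 15.1, 22.8 and 22.4 CPM in siRELB. The lowest library of each group was replicate 1, and siNFKB2 replicate 1 lay within the siNS range. DDIT4 rose by 1.40 on the log2 scale (SE 0.409, adjusted p = 0.0292). Against the siNS library of the same number it was 2.22, 2.82 and 2.66 times as high in siNFKB2. The DDIT4 call was lost without siNS replicate 3 (adjusted p = 0.0507), siNFKB2 replicate 2 (0.106) or siNFKB2 replicate 3 (0.0907), and when the fit held just the 6 siNS and siNFKB2 libraries (0.0589), in a range of 1.03e-06 to 0.106 over 18 alternatives. DDIT4-AS1 covers 41.2% of the exonic length of DDIT4 on the other strand, so its count is uncertain. MARS, on the opposite strand, covers 27.2% of the exonic length of DDIT3 and had 3520 to 6185 counts per library, against 137 to 399 for DDIT3. NUP62 likewise covers 21.2% of ATF5 and had 1681 to 2397 counts, against 941 to 1444 for ATF5. The levels of DDIT3 and ATF5 are thus uncertain as well. Opposite-strand genes with few counts cover 27.2% of MTHFD2 (SLC4A5, 2 to 7 counts), 11.8% of CEBPB (CEBPB-AS1, 15 to 30) and 8.97% of SLC7A11 (SLC7A11-AS1, 0 to 5).

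CHAC1, which degrades glutathione and is one of the most responsive ATF4 targets, stayed low. It was at 5.68, 7.13 and 7.96 CPM in siNS, 7.41, 7.37 and 6.09 CPM in siNFKB2, and 7.33, 7.48 and 7.06 CPM in siRELB. These ranges overlapped almost fully, with a log2 fold change of 0.01 in siNFKB2 (SE 0.172, adjusted p = 0.977). STC2, a secreted glycoprotein, was near the limit of detection at 13 to 41 counts per library, with a log2 fold change of 0.66 in siNFKB2 (adjusted p = 0.203).

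Of the 3 amino acid transporter genes, only SLC7A11 was called in siNFKB2, and no gene of this role was called in siRELB. SLC7A11 is the light chain of the cystine and glutamate exchanger that feeds glutathione synthesis. It was at 41.8, 13.9 and 13.4 CPM in siNS, 132.6, 72.4 and 64.5 CPM in siNFKB2, and 86.8, 41.0 and 41.9 CPM in siRELB. The replicate 1 library was the highest of its group in every group, and the siNFKB2 libraries lay above all siNS libraries. SLC7A11 had the largest rise of the 32 genes, 1.96 on the log2 scale (SE 0.487, adjusted p = 0.0147). The SLC7A11 call was lost without siNS replicate 3 (adjusted p = 0.0648), in a range of 1.83e-07 to 0.0648 over 18 alternatives. Its value in siRELB was 1.29 (SE 0.480, adjusted p = 0.212). Relative to the siNS library of the same number, SLC7A11 was 3.17, 5.22 and 4.81 times as high in siNFKB2 and 2.08, 2.95 and 3.13 times as high in siRELB. The numbers were not taken to pair siRELB with siNS. Without regard to number these groups overlapped, with the lowest siRELB value at 41.0 CPM and the highest siNS value at 41.8 CPM. The siRELB value without siNS replicate 1 was 2.05 (adjusted p = 0.0129), and with no filter on low counts it passed as well (log2 1.28, adjusted p = 0.0386).

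The other transporter genes did not follow SLC7A11. SLC3A2, the heavy chain that carries SLC7A11 and SLC7A5 to the membrane, was at 259.9 ± 44.96 CPM in siNS, 278.8 ± 18.3 CPM in siNFKB2 (log2 0.10, adjusted p = 0.626) and 270.7 ± 16.6 CPM in siRELB. SLC7A5, the large neutral amino acid transporter, was at 503.4 ± 18.2 CPM in siNS, 442.9 ± 50.7 CPM in siNFKB2 (log2 -0.18, adjusted p = 0.265) and 545.0 ± 48.3 CPM in siRELB. Without all libraries numbered 1, SLC7A5 was lower in siNFKB2 (log2 -0.30, adjusted p = 0.0347).

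**Figure D3:**
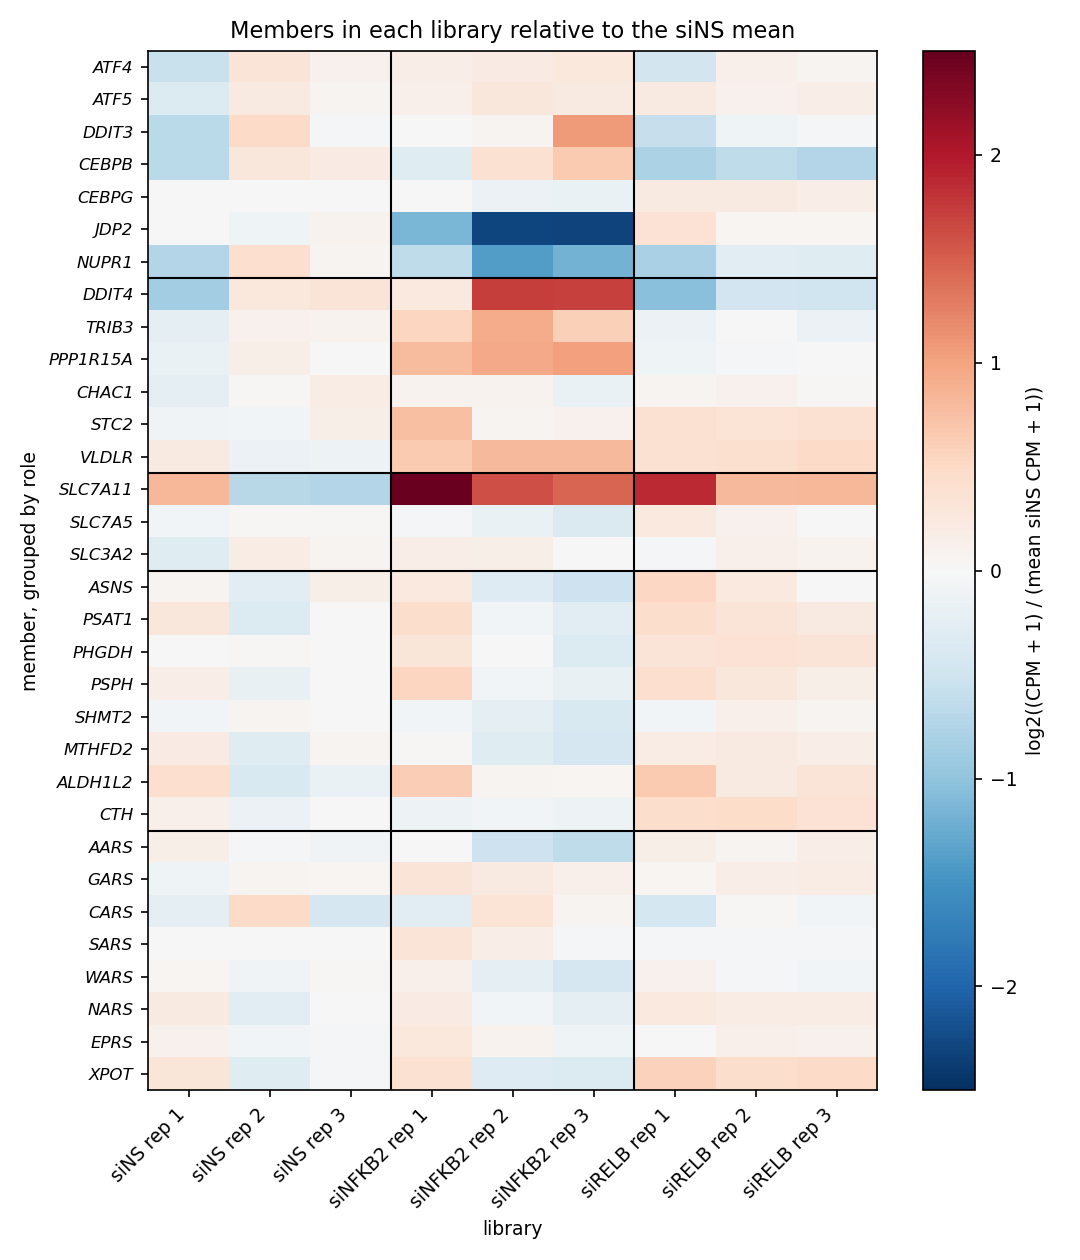
Log2 ratio of each library to the siNS mean, computed on CPM + 1, for the 32 tested genes grouped by role (rows) in the 9 libraries (columns). Values of enzymes and synthetases run from -0.63 (AARS, siNFKB2 replicate 3) to 0.66 (ALDH1L2, siRELB replicate 1). JDP2 and SLC7A11 stand out in all 3 siNFKB2 libraries, and DDIT4 and NUPR1 (-1.39 and -1.17) in siNFKB2 replicates 2 and 3. PPP1R15A was at 0.79 to 1.02 in siNFKB2, and DDIT3 at 1.07 in siNFKB2 replicate 3. SLC7A11 was at 1.87, 0.81 and 0.83 in siRELB replicates 1 to 3.

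Among 8 tested enzymes of serine, folate and amino acid metabolism, none was called in siNFKB2 by edgeR's quasi-likelihood test, none had an unadjusted p below 0.05, and DESeq2 called none. Log2 fold changes in siNFKB2 were 0.02 for PHGDH, 0.07 for PSAT1 and 0.14 for PSPH, which form serine from a glycolytic intermediate in successive steps. PHGDH was at 77.3, 80.1 and 77.3 CPM in siNS and spread to 97.3, 78.9 and 61.2 CPM in siNFKB2. SHMT2 (-0.23) and MTHFD2 (-0.22), the mitochondrial enzymes that turn serine into folate-bound carbon units, and ALDH1L2 (0.35), which oxidises the last of them, were not called either. The same held for CTH (-0.12), which makes cysteine from cystathionine. Without the 3 libraries numbered 1, SHMT2 passed (log2 -0.35, adjusted p = 0.0121).

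ASNS, which makes asparagine and is a standard ATF4 target, had a low count in every library. It was at 3.00, 2.19 and 3.24 CPM in siNS, 3.49, 2.03 and 1.65 CPM in siNFKB2, and 4.46, 3.52 and 2.85 CPM in siRELB, with partial overlap (log2 -0.22 in siNFKB2, SE 0.312, adjusted p = 0.644). A readthrough transcript gene of GENCODE 29, AC079781.5, shares 44.6% of the exonic length of ASNS on the same strand, and the tables' own readthrough entry CZ1P-ASNS had 0 to 2 counts. PCK2, mitochondrial phosphoenolpyruvate carboxykinase, had 1 count in all 9 libraries together and was not tested. PCK2 and CARS are the only genes of the 33 with an entry for a further placement. CARS, cysteinyl-tRNA synthetase, had 7 to 25 counts per library and its further entry 14 to 40. The levels of ASNS, CARS and PCK2 are thus uncertain, and the part of shared or repeated sequence in them was not tested.

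Of the 8 genes of tRNA charging and export, none was called in siNFKB2 by edgeR or by DESeq2, and none had an unadjusted p below 0.05 by edgeR. GARS, with a C/EBP-ATF core in the window shown above, was at 436.1, 490.1 and 485.0 CPM in siNS and 589.8, 546.2 and 511.9 CPM in siNFKB2, without overlap (log2 0.22, SE 0.101, adjusted p = 0.131). AARS, whose window also holds a core, was at 212.2, 185.4 and 180.1 CPM in siNS, 193.2, 134.7 and 123.9 CPM in siNFKB2, and 214.3, 202.5 and 217.4 CPM in siRELB. AARS was not called in siNFKB2 (log2 -0.35, SE 0.160, adjusted p = 0.13) but passed with the replicate block (-0.37, adjusted p = 0.0262) and without siNFKB2 replicate 1 (-0.58, adjusted p = 0.00607). Log2 fold changes of the others were 0.16 for SARS, -0.16 for WARS, -0.02 for NARS, 0.09 for EPRS, 0.17 for CARS and -0.05 for XPOT, which exports tRNA from the nucleus. None of the 5 genes with a core match in the promoter window (CEBPG, CHAC1, AARS, GARS and NARS) was called in siNFKB2 against siNS. In that comparison 26.1% of all genes were called, and 5 genes are too few to read a difference from it. Between the knockdowns AARS and CEBPG were called lower in siNFKB2, as were 14.3% of all genes.

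Levels can be compared between genes only per length, here as RPKM, CPM divided by kilobases of the GENCODE 29 exons of each gene. In siNS the highest of the 32 were GARS (113.3 RPKM), SLC7A5 (106.1 RPKM), ATF4 (94.8 RPKM) and SARS (83.3 RPKM). DDIT3 (9.22 RPKM), JDP2 (5.32 RPKM), CHAC1 (3.36 RPKM) and SLC7A11 (2.39 RPKM) were far lower. In siNFKB2 against siNS, PPP1R15A went from 24.2 to 46.3 RPKM, DDIT4 from 15.6 to 41.3 RPKM and SLC7A11 from 2.39 to 9.31 RPKM.

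**Figure D4:**
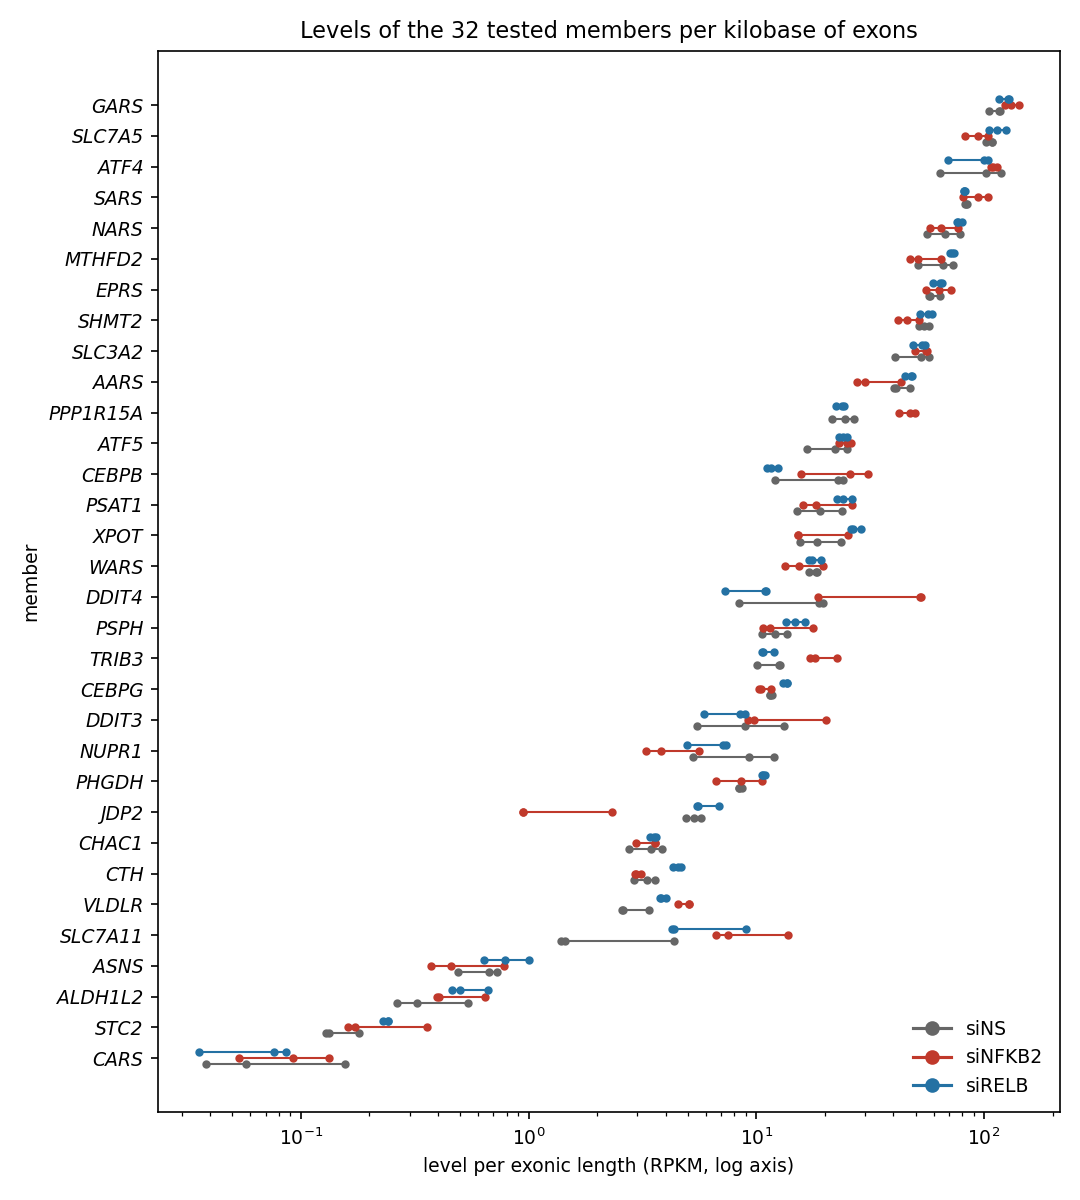
Level per kilobase of exons (RPKM, log axis) of the 32 tested genes, ordered by the siNS mean, with each library as a point and the group range as a line. GARS and SLC7A5 are highest in siNS, at 113.3 and 106.1 RPKM, and ASNS, ALDH1L2, STC2 and CARS lie below 1 RPKM on average in each group.

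After RELB knockdown none of the 32 genes was called, beside 2.02% of all genes (1.21% higher and 0.81% lower). By edgeR's quasi-likelihood test 6 of them had an unadjusted p below 0.05, beside 16.8% of all genes, and DESeq2 called none. The median log2 fold change was 0.13, against -0.02 over all genes, and the values ran from -0.74 (CEBPB) to 1.29 (SLC7A11). All 8 tested enzymes had a positive value, with a median of 0.34. CTH was at 8.68, 7.003 and 7.96 CPM in siNS and 10.96, 11.3 and 10.4 CPM in siRELB, without overlap (log2 0.46, SE 0.142, adjusted p = 0.132). PHGDH was at 98.4, 100.8 and 97.6 CPM in siRELB, also above all siNS libraries (log2 0.34, adjusted p = 0.292). XPOT was at 173.8, 114.2 and 136.1 CPM in siNS and 211.9, 191.9 and 196.3 CPM in siRELB (log2 0.50, adjusted p = 0.267). Not overlapping with siNS were 6 genes higher and 1 lower in siRELB, or 7 of 32, where 22.5% of all genes did not overlap (12.3% higher and 10.2% lower).

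The siRELB count depended on siNS replicate 1. Without that library CTH (log2 0.54, adjusted p = 0.0487), VLDLR (0.57, adjusted p = 0.0148) and SLC7A11 were called higher and CEBPB lower (-0.99, adjusted p = 0.0224), that is 4 genes or 12.5%, beside 12% of all genes. Without all libraries numbered 1, 8 were called, 5 higher and 3 lower, or 25%, beside 22.7% of all genes. These shares are again near the background of the same setting.

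Set directly against each other, the knockdowns differed in 8 of the 32 genes (25%, beside 26.6% of all genes, 12.2% higher and 14.3% lower). Of these, 4 were higher in siNFKB2 (DDIT4, TRIB3, PPP1R15A and CEBPB) and 4 lower (JDP2, CTH, AARS and CEBPG). This comparison is the test of whether the knockdowns differ in their effect, since both are set against the same siNS libraries. Libraries of the knockdowns did not overlap for 7 genes higher and 9 lower in siNFKB2, or 16 of 32, beside 46% of all genes (22.3% higher and 23.6% lower). An unadjusted p below 0.05 was reached by 13 of 32, beside 38.9% of all genes. DDIT4 was higher by 2.08 on the log2 scale (SE 0.419, adjusted p = 0.00547), PPP1R15A by 0.98 (adjusted p = 0.000471) and TRIB3 by 0.80 (adjusted p = 0.00335). JDP2 was lower, with a log2 value of -2.08 (SE 0.306, adjusted p = 0.00113). DDIT4, PPP1R15A, TRIB3 and JDP2 were called in all 18 alternatives in this comparison.

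The other differences were less firm. CEBPB was 1.05 higher on the log2 scale in siNFKB2 (SE 0.285, adjusted p = 0.0218), with no overlap between 30.7 CPM, its lowest siNFKB2 value, and 24.4 CPM, its highest siRELB value. The CEBPB call was lost without siNFKB2 replicate 2 (adjusted p = 0.0699) or 3 (0.0794), without siRELB replicate 1 (0.0657), 2 (0.0601) or 3 (0.0706), and with mitochondrial rRNA as a covariate (0.0602). CTH was at 7.09, 7.48 and 7.15 CPM in siNFKB2, below every siRELB library. Its mean was 7.24 ± 0.215 CPM in siNFKB2 and 10.9 ± 0.447 CPM in siRELB (log2 -0.59, SE 0.143, adjusted p = 0.0133), and its call was lost without siNFKB2 replicate 2 (0.051) or siRELB replicate 2 (0.0581). AARS (log2 -0.49, adjusted p = 0.0457) and CEBPG (-0.32, adjusted p = 0.0449) were just past the threshold. AARS and CEBPG each lost the call with 7 of the 9 libraries left out singly, and kept it without siNS replicate 1 or siNFKB2 replicate 1. Both also lost it with mitochondrial rRNA as a covariate (adjusted p = 0.102 for AARS and 0.103 for CEBPG), AARS when the fit held just the siNFKB2 and siRELB libraries (0.0503) and CEBPG with no filter on low counts (0.155).

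Between the knockdowns all 8 enzymes had a negative log2 value in the main fit, with a median of -0.30 (all genes, 0.02), although only CTH was called. Over the alternatives the sign was not kept by PSPH, which reached 0.05, or by ALDH1L2, which reached 0.11. The replicate block raised the count to 14 genes, 7 each way (43.8%, beside 40.9% of all genes). The 6 gained were DDIT3 (log2 0.72, adjusted p = 0.032), SLC7A11 (0.69, adjusted p = 0.00183), VLDLR (0.34, adjusted p = 0.0452), MTHFD2 (-0.43, adjusted p = 0.0142), XPOT (-0.59, adjusted p = 0.00268) and SLC7A5 (-0.30, adjusted p = 0.0292). Without siNFKB2 replicate 1 there were 14 calls, 4 higher and 10 lower (43.8%, beside 29.8% of all genes). Without all libraries numbered 1 there were 21, 7 higher and 14 lower, or 65.6%, beside 44.1% of all genes. In that setting 6 of the 8 enzymes were lower in siNFKB2 than in siRELB, among them PHGDH (log2 -0.50, adjusted p = 0.0053), SHMT2 (-0.41, adjusted p = 0.00549) and PSAT1 (-0.44, adjusted p = 0.0159). The count fell to 4 (12.5%) without siNFKB2 replicate 2 or siRELB replicate 2, where 14.4% and 15.2% of all genes were called. It fell to 5 (15.6%) without siNFKB2 replicate 3, siRELB replicate 1 or siRELB replicate 3, where 17.1%, 19.5% and 15.4% of all genes were called. It was also 5 with mitochondrial rRNA as a covariate, beside 25.7% of all genes, where the enzymes' median was -0.20.

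The wider pathway was read from lists of genes that are not among the 33. These lists were chosen with earlier results of these data known, so their shares called are descriptions and not tests. Among other stress targets, of 18 tested, 8 rose and 3 fell in siNFKB2 (61.1% called, beside 26.1% of all genes), with a median log2 fold change of 0.38. The autophagy genes MAP1LC3B (log2 0.84, adjusted p = 0.000452) and GABARAPL1 (1.06, adjusted p = 0.00056) and CREBRF (1.501, adjusted p = 0.00155), a regulator that is turned on by stress, rose. TXNIP, which restrains glucose uptake, fell (-3.14, adjusted p = 0.00029). Many of these genes answer to other signals as well. In siRELB GABARAPL1 (log2 0.66, adjusted p = 0.0357) and RAB32 (0.54, adjusted p = 0.0348, named after its value was seen) rose and TXNIP fell (-1.76, adjusted p = 0.0186), or 16.7% of the list beside 2.02% of all genes. Between the knockdowns 6 were higher and 3 lower in siNFKB2 (50%, beside 26.6% of all genes).

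Of genes upstream of ATF4, 19 were tested. Of these kinases and eIF2 factors, 1 rose and 4 fell in siNFKB2 (26.3%, near the 26.1% of all genes), with a median of -0.13. EIF2AK1, the haem-regulated eIF2 kinase, fell from 291.4 to 189.1 CPM on average (log2 -0.62, adjusted p = 0.0193). GCN1, which activates the kinase for amino acid shortage, fell too (-0.41, adjusted p = 0.0151), as did EIF2B3 (-0.60, adjusted p = 0.00947) and, named after its value was seen, EIF2B1 (-0.42, adjusted p = 0.0294), subunits of the eIF2 exchange factor. PPP1R15B, the constitutive counterpart of PPP1R15A in eIF2 dephosphorylation, rose (0.58, adjusted p = 0.0134). In siRELB 1 gene of this list was called (5.26%, beside 2.02% of all genes), PPP1CA, a catalytic phosphatase subunit (log2 -1.22, adjusted p = 0.022), named after its value was seen.

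Of 16 other cytosolic synthetase genes and their scaffold, 1 rose and 2 fell in siNFKB2 (18.8%, beside 26.1% of all genes, median -0.01). KARS (-0.61, adjusted p = 0.00326) and QARS (-0.48, adjusted p = 0.00806) fell and DARS (0.53, adjusted p = 0.0352) rose, while HARS was at 0.38 (adjusted p = 0.0735). KARS was also the 1 gene of this list called in siRELB (6.25%, beside 2.02% of all genes; log2 -0.52, adjusted p = 0.0428). Of 15 mitochondrial synthetases, which are not classed as ATF4 targets here, 2 rose and 2 fell (26.7%, near the 26.1% of all genes), namely YARS2 (0.59), MARS2 (0.57), AARS2 (-0.50) and EARS2 (-0.60), with adjusted p from 0.024 to 0.0498.

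Of 14 other amino acid transporters, 2 rose and 3 fell in siNFKB2 (35.7%, beside 26.1% of all genes). SLC1A4 (-0.98, adjusted p = 0.00561), a carrier of serine and other neutral amino acids, and the glycine carrier SLC6A9 (-0.76, adjusted p = 0.0232) fell. SLC7A6 (0.64, adjusted p = 0.00811) and SLC38A7 (0.54, adjusted p = 0.0135) rose. The third fall was in SLC36A4 (-0.50, adjusted p = 0.0397). In siRELB 1 gene of this list was called (7.14%, beside 2.02% of all genes), SLC36A1 (log2 0.72, adjusted p = 0.0282). SLC36A4 and SLC36A1 were named after their values were seen.

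Of 22 further amino acid and folate enzymes, 2 rose and 6 fell in siNFKB2 (36.4%, beside 26.1% of all genes, median -0.20). GOT2, mitochondrial aspartate aminotransferase, fell from 399.8 to 199.2 CPM on average (log2 -1.005, adjusted p = 0.000374). ALDH1L1 (-1.55, adjusted p = 0.00178), the cytosolic relative of ALDH1L2, and MTHFD1 (-0.64, adjusted p = 0.00444) of cytosolic folate metabolism fell as well. None of the 22 was called in siRELB by edgeR's quasi-likelihood test, where 3 had an unadjusted p below 0.05 (16.8% of all genes did).

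Of the other arms of the ER stress response, 18 genes were tested. Of these sensors, chaperones and degradation genes, 2 rose and 3 fell in siNFKB2 (27.8%, near the 26.1% of all genes, median -0.25). The sensor kinase ERN1 rose from 10.7 to 27.4 CPM on average (log2 1.36, adjusted p = 0.000398) and EDEM1, of ER degradation, from 67.4 to 152.7 CPM (1.18, adjusted p = 0.00139). The folding enzymes PDIA4 (-0.67, adjusted p = 0.00479) and PDIA6 (-0.51, adjusted p = 0.00616) fell, as did XBP1 (-0.84, adjusted p = 0.011), named after its value was seen, the transcription factor that ERN1 activates by splicing. None of the 18 was called in siRELB, where 5 had an unadjusted p below 0.05 (16.8% of all genes did).

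**Figure D5:**
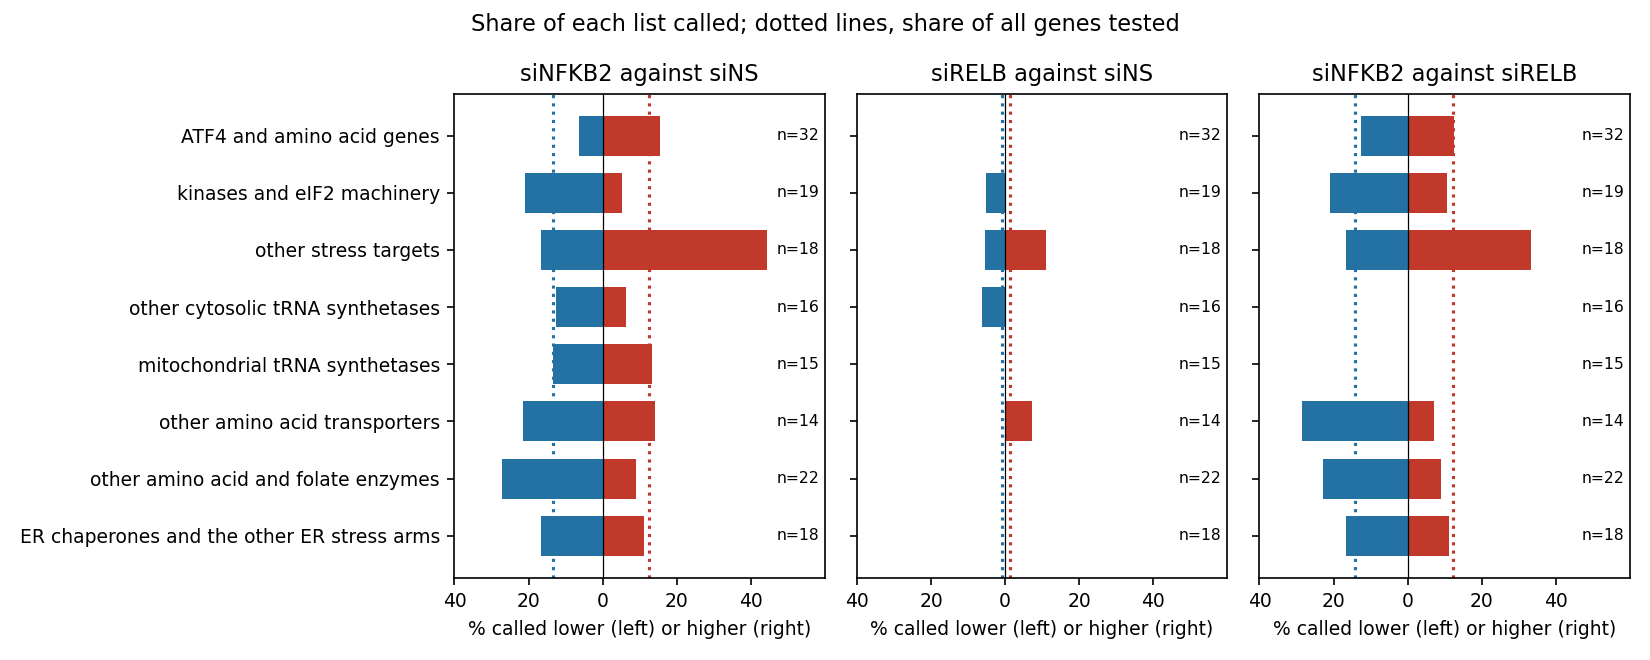
Share of each list called higher (right, red) or lower (left, blue) in each comparison, with the number tested, and dotted lines for the share of all genes called in each direction. In siNFKB2 against siNS the other stress targets had 61.1% called, with 8 of 18 higher. The ATF4 and amino acid genes had 5 of 32 higher and 2 lower (6.25%), with the dotted lines at 12.6% higher and 13.5% lower. The lists were chosen with earlier results of these data known.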

How the data were processed

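The authors deposited whole-number read counts per gene symbol for each library, with no normalization. The submitters' processing notes name Trimmomatic 0.38, STAR 2.7.1a, Subread 1.6.4 and GRCh38.p13. Tool roles, annotation and strandedness were not given in the sources used here. Per the labels' protocols, RNA was purified on columns and selected with oligo-dT.

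Groups and replicate numbers came from the labels. Genes were filtered with filterByExpr and scaled by TMM in edgeR 4.0.16 (R 4.3.3). A fit of 3 group means to all 9 libraries was tested by edgeR's quasi-likelihood F test, and each adjusted p is its Benjamini-Hochberg value over all 14815 genes tested, with calls below 0.05, unless another setting is named. The SE was obtained from F, as the size of the log2 fold change over its root. The common biological coefficient of variation was 0.184. No pair of libraries within a group looked like a duplicate (chi-square per degree of freedom 3.32 to 84.0). The fit was first tested on simulated counts.

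Deviations of same-numbered libraries correlated at 0.63, 0.13 and 0.13 in siNFKB2 and siNS and at 0.59, 0.26 and 0.51 in siNFKB2 and siRELB. The numbers were taken to pair these, but some libraries of unlike number correlated more. The siNS replicate 2 was at 0.62 with siNFKB2 replicate 3, and siNS replicate 3 at 0.32 with siNFKB2 replicate 2. The siRELB and siNS replicates 3 were at 0.08, so they were not paired. The pairing is thus uncertain, and the main fit held no replicate block.

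Alternatives were DESeq2 1.42.0, its size factors, no filter, a mean of at least 5 CPM, only the libraries compared, a replicate block, a mitochondrial rRNA covariate, summed further placements (5005 entries, at most 0.0369% of counts) and each library left out. The genes and lists were chosen with earlier results of these data known. Every tested gene of the 33 is named. The value in every library is given for those called in any comparison and for ATF4, DDIT3, TRIB3, ASNS and CHAC1. Up to 4 genes of each further list with the smallest adjusted p in siNFKB2 against siNS are named. The values of 1 gene that this rule would name are not reported here. Exonic overlaps and lengths came from GENCODE 29.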

Additional observations from a re-analysis of the deposited data

How the results depend on the processing

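The 7 genes called in siNFKB2 against siNS numbered 4 to 8 with 1 library left out (all genes, 2220 to 4895 calls), 11 without the libraries numbered 1 (all genes, 6711) and 8 with the replicate block (all genes, 5944). In siRELB against siNS, 0 to 4 were called with 1 library left out (all genes, 15 to 1819), 5 with the replicate block (all genes, 1570), 8 without the libraries numbered 1 (all genes, 3390) and 1 with no filter. All genes called there numbered 830 by DESeq2, 503 with the mitochondrial rRNA covariate and 129 with only the 6 libraries compared, against 299. Between the knockdowns 4 to 14 were called with 1 library left out (all genes, 2188 to 4917), 14 with the replicate block (all genes, 6054), 5 with the mitochondrial rRNA covariate and 21 without the libraries numbered 1 (all genes, 6600). The cause of these shifts was not tested. No called gene of the 33 changed sign under any alternative. The block changed no call of the 33 in siNFKB2 against siNS other than that of AARS. In siRELB against siNS, where the numbers were not taken to pair the libraries, it gained SLC7A11, VLDLR, DDIT4, XPOT and CEBPB. Depth limits what can be said of CARS, STC2, ASNS and ALDH1L2, at under 5 CPM on average in each group.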
